A study of Rattus norvegicus with 25 samples.

Results

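The family of miR-15b, miR-16, miR-195 and miR-497, with its X-linked relatives miR-322 and miR-503, was followed in sperm of rats that had self-administered morphine or saline. All rows of the miRNA count matrix named for an arm of rno-miR-15a, rno-miR-15b, rno-miR-16, rno-miR-195, rno-miR-497, rno-miR-322 or rno-miR-503 were taken, which gave 11 of the 562 mature miRNAs listed. No row was named for miR-15a. The 11 members were both arms of miR-15b, miR-16, miR-195, miR-322 and miR-503 and the 5p arm of miR-497. Of these, 10 passed the filter on low counts, which left 317 miRNAs for testing, and miR-503-3p did not.

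The samples were sperm small RNA libraries of F0 male Sprague–Dawley rats, and the labels call the libraries of a group biological replicates. Sperm was taken from 7 males whose intravenous self-administration of saline had just ended (F0_SAL), from 7 males after morphine (F0_MOR), and from 5 saline (F0_ABS-SAL) and 6 morphine (F0_ABS-MOR) males that had then been kept abstinent for 90 days. Abstinent saline males had no drug to abstain from and served as the matched timepoint. Later collection also meant greater age, so that age and time since self-administration cannot be told apart, and the ages themselves are not given in the sources used here. Sperm swam out of cut cauda epididymides in one of a pair of culture media, which the labels do not tie to libraries, and went through a double swim-up. The matrix names its libraries by a letter and by REG or TO, terms that the sources do not expand, and the sizes of the groups decided which of the terms stood for which timepoint. Libraries held from 1032386 to 3203211 miRNA reads. Depth ran with timepoint. The group medians were 1701012 reads for F0_SAL and 1428308 for F0_MOR, against 2334377 for F0_ABS-SAL and 2134169 for F0_ABS-MOR.

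A mature miRNA guides the silencing complex to messenger RNAs that pair with its seed, bases 2 to 8 from the 5′ end. The miR-15/16 family is known for holding back the cell cycle through D-type and E-type cyclins and for lowering the survival factor Bcl2. miR-195 and miR-497 come from 1 shared transcript and are known from postnatal heart and muscle, where they accompany the exit from cell division, and miR-322 (the rodent form of human miR-424) and miR-503 are induced as muscle and other cells differentiate. Mature sperm transcribe little, and their small RNAs are laid down during spermatogenesis and changed by vesicles of the epididymal epithelium.

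The 5p arms are shown first because they carry the shared seed, which stands in capitals; the sequences are those of RefSeq on the assembly GRCr8, where 11 of 11 members were found.
rno-miR-16-5p: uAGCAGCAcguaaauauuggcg
rno-miR-195-5p: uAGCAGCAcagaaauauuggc
rno-miR-15b-5p: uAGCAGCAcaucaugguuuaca
rno-miR-497-5p: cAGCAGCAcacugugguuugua
rno-miR-322-5p: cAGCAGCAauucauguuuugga
rno-miR-503-5p: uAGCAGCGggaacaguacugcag
The first 5 had 1 seed, and no other of the 693 rat miRNAs in the table had it. miR-503-5p differed from that seed at its last base (A8G, counted from 1 at the 5′ end of miR-16-5p). The 6 letters AGCAGC within bases 1 to 8, common to these 6 members, were found in 8 of the 693 mature sequences (1.154%), and the other two were miR-103-3p and miR-107-3p. miR-16-5p and miR-195-5p were the closest pair, alike at 19 of 21 positions, with the substitutions G10A and U11G from the former to the latter. How reads that could fit both were divided is not given in the sources used here.

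The 3p arms share no seed with the 5p arms or with each other. The following 3 are shown because their levels differed between timepoints.
rno-miR-15b-3p: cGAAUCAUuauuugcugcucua
rno-miR-195-3p: cCAAUAUUggcugugcugcucca
rno-miR-322-3p: aAACAUGAagcgcugcaaca
In GRCr8, the hairpins of miR-15b (chr2:155555178-155555275) and miR-16 (chr2:155555327-155555421) lie 51 bases apart on the plus strand within the protein-coding gene Smc4. Those of miR-497 (chr10:55450171-55450239) and miR-195 (chr10:55450495-55450581) lie 255 bases apart on the plus strand with no gene spanning them in the table used. Those of miR-503 (chrX:137725856-137725926) and miR-322 (chrX:137726147-137726241) lie 220 bases apart on the minus strand within the long noncoding RNA gene LOC102550366. The reads had been aligned to rn6, and no position in the files was used.

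The family made up a small share of sperm miRNA. Summed over its members it took between 0.349% and 0.776% of the miRNA reads of a library, and the group medians were 0.414% for F0_SAL and 0.501% for F0_MOR, against 0.505% for F0_ABS-SAL and 0.487% for F0_ABS-MOR. The ranges of the 4 groups overlapped. miR-16-5p alone held between 81.3% and 92.9% of the family's reads. Over all libraries its count was 220015, against 16497 for miR-15b-5p, 8757 for miR-15b-3p and 2881 for miR-195-5p. The other members were scarce, with 777 reads for miR-497-5p, 775 for miR-503-5p, 620 for miR-322-3p, 402 for miR-16-3p, 286 for miR-322-5p and 279 for miR-195-3p. miR-503-3p had 32 reads in all. In the miR-322 hairpin the 3p arm thus had more reads than the 5p arm that carries the family seed, while in the miR-16 and miR-195 hairpins the 5p arm had more.

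Levels are given as normalized counts, reads scaled by TMM to the geometric mean of the library sizes. Among nonabstinent males miR-16-5p stood at 8349 ± 2294 (SD, n = 7) after saline and 8870 ± 1566 (n = 7) after morphine, and among abstinent males at 7585 ± 1972 (n = 5) and 7717 ± 2954 (n = 6). Its lowest library held 4218 and its highest 12020, and both extremes lay within groups that overlapped with all others. miR-15b-5p, from the same cluster, had a median of 618 in F0_SAL (range 407 to 858) and 842 in F0_MOR (401 to 876), against 580.2 in F0_ABS-SAL (424 to 763) and 529 in F0_ABS-MOR (400.5 to 728). For these 2 members no group stood apart from the others.

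**Figure D1:**
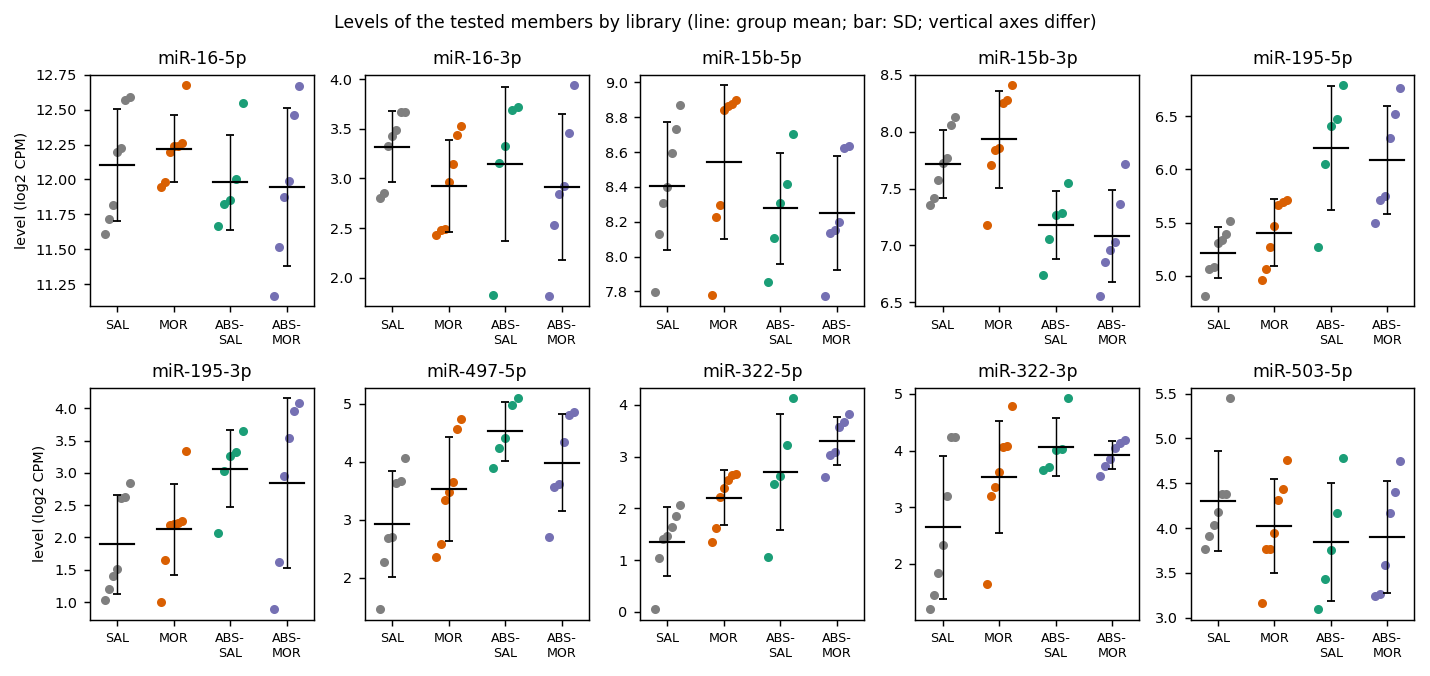
Level of each of the 10 tested members in each library, as log2 CPM computed with a prior count of 2 (vertical axis, scaled for each panel), by group (horizontal axis, with the F0 prefix left out). Points are libraries, lines are group means and bars are 1 SD; miR-195-5p, miR-497-5p and miR-322-5p lie above every F0_SAL library in 4 of 5 F0_ABS-SAL libraries, while miR-16-5p, miR-15b-5p and miR-503-5p overlap across the 4 groups.

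The timepoint comparison between saline males asked whether the sperm of males collected 90 days later differed without any drug. In F0_ABS-SAL against F0_SAL, 5 of the 10 tested members were higher and 0 were lower, where a call by edgeR's quasi-likelihood test needed a log2 fold change larger than 0.58 in size and a p under 0.1 after Benjamini–Hochberg adjustment. Of all 317 miRNAs, 33.1% were called in this comparison, 22.4% as higher and 10.7% as lower. These 71 higher and 34 lower calls became 44 and 21 without F0_ABS-SAL library R, and 67 and 59 without library E. At an unadjusted p under 0.05 there were 6 members, and 42.9% of all miRNAs. The members' median log2 fold change was 0.49, beside 0.00 over all miRNAs tested. The called members were both arms of miR-195, miR-497-5p and both arms of miR-322. In 0 members did all libraries of one group lie above or below those of the other, against 4.73% of all miRNAs for a higher and 2.21% for a lower level.

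miR-195-5p had a median of 71.0 normalized counts in F0_SAL, with a lowest value of 49.7 and a highest of 82.0. In F0_ABS-SAL it stood at 69.0 in library E, 120 in Y, 154 in K, 161 in R and 202 in L. Except for library E, all abstinent saline libraries lay above every F0_SAL library. It was 2.10-fold higher, a log2 fold change of 1.07 (SE 0.25, 95% bounds 0.59 and 1.55, adjusted p = 0.0027 by edgeR). Its cluster neighbour miR-497-5p had a lowest value of 3.13, a median of 10.1 and a highest of 29.0 in F0_SAL. In F0_ABS-SAL it stood at 25.3 in E, 32.9 in Y, 37.2 in K, 56.2 in R and 61.0 in L. Again 4 of the 5 abstinent saline libraries exceeded every F0_SAL library, and E was the lowest. The fold change was 2.82 (log2 1.49, SE 0.46, adjusted p = 0.017 by edgeR).

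miR-322-5p was nearly absent in F0_SAL, with raw counts between 0 and 5 and a median of 3. In F0_ABS-SAL its raw counts were 2 in E, 9 in R, 16 in Y, 22 in K and 50 in L. The difference thus rested on few reads, and library L held the most of them. These raw counts are not scaled for depth, whose median was greater in F0_ABS-SAL than in F0_SAL. The log2 fold change was 2.02 (SE 0.52, adjusted p = 0.0062 by edgeR), and without library L it was 1.39 (adjusted p = 0.0584). miR-322-3p, the other arm, ranged from 2.33 to 32.8 normalized counts in F0_SAL with a median of 7.38. In F0_ABS-SAL it stood at 21.1 in Y, 22.1 in K, 27.6 in R, 28.2 in E and 53.7 in L. Only library L lay above the F0_SAL range, whereas 5 of the 7 F0_SAL libraries lay below all abstinent ones. The log2 fold change was 1.19 (SE 0.49, adjusted p = 0.0662 by edgeR).

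miR-195-3p had between 1.87 and 11.4 normalized counts in F0_SAL, with a median of 3.32. In F0_ABS-SAL it had 5.83 in E, 13.1 in K, 15.7 in L, 16.4 in Y and 21.2 in R. Library E again lay within the F0_SAL range and the other 4 above it. The log2 fold change was 1.35 (SE 0.57, adjusted p = 0.071 by edgeR), and without the filter on low counts the call was lost (1.33, adjusted p = 0.107). The calls of the scarcest arms hung on single libraries. That of miR-322-3p was lost without F0_SAL library F (edgeR adjusted p = 0.101), W (0.112) or F0_ABS-SAL library L (0.195), within a range of 0.0144 to 0.195 over all libraries left out. That of miR-195-3p was lost without F0_SAL library C (edgeR adjusted p = 0.112), F (0.121), O (0.127) or W (0.141) or F0_ABS-SAL library L (0.130), R (0.193) or Y (0.110), within a range of 0.0487 to 0.193. The calls of miR-195-5p, miR-497-5p and miR-322-5p stood whichever library was left out.

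The remaining members did not pass both thresholds. miR-15b-3p had a median of 386 normalized counts in F0_SAL and stood at 194 in R, 242 in Y, 281 in L, 285 in K and 342 in E among F0_ABS-SAL libraries. Of these, 4 lay below every F0_SAL library. Its log2 fold change was −0.54 (SE 0.22, adjusted p = 0.0645 by edgeR), which passes the p threshold but not the one on fold change. It passed both when F0_SAL library H (log2 fold change −0.60), O (−0.63) or V (−0.61) or F0_ABS-SAL library E (−0.72) or L (−0.60) was left out. The log2 fold changes of miR-16-5p (−0.14), miR-15b-5p (−0.14) and miR-16-3p (−0.08) turned to 0.27, 0.24 and 0.33 when libraries were scaled by total count alone, and none was called either way. With that scaling the median over all miRNAs moved to 0.39, and the calls split into 110 higher and 1 lower instead of 71 and 34. miR-503-5p, 220 bases from miR-322 in the genome, had a log2 fold change of −0.46 (SE 0.37, adjusted p = 0.336 by edgeR), and −0.83 (adjusted p = 0.0867) without library E.

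**Figure D2:**
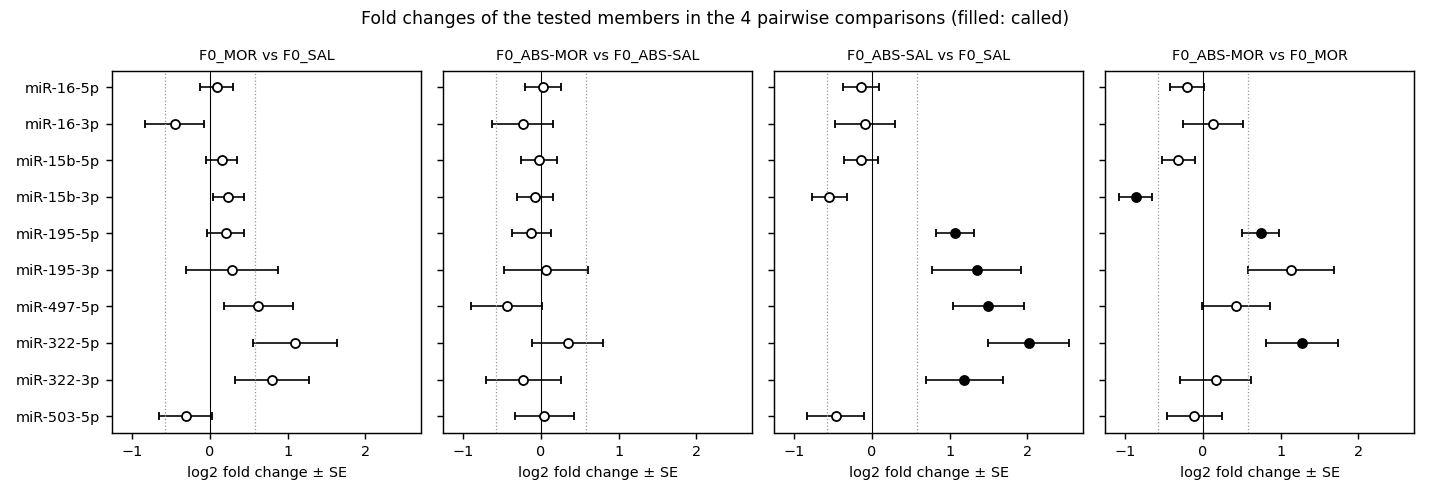
Log2 fold change of each tested member (horizontal axis, point: estimate by edgeR, bar: SE derived from the F statistic of its test) in the 4 pairwise comparisons (panels); dotted lines mark 0.58 in either direction and filled points are called. Filled points occur in the timepoint comparisons, 5 in the saline and 3 in the morphine males, and none in the treatment comparisons.

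In the morphine males, F0_ABS-MOR against F0_MOR, 3 of 10 tested members were called, against 21.1% of all miRNAs tested (11% higher and 10.1% lower). The split of 35 higher and 32 lower calls became 57 and 14 when libraries were scaled by total count alone, where the median over all miRNAs moved to 0.18. miR-195-5p and miR-322-5p were higher and miR-15b-3p was lower. The median log2 fold change of the members was 0.15, beside 0.00 over all miRNAs. Groups without overlap were found in 0 members, against 1.89% of all miRNAs for a higher and 1.58% for a lower level. miR-195-5p ranged from 55.3 to 94.7 normalized counts in F0_MOR with a median of 79.4, and from 81.0 to 198 in F0_ABS-MOR with a median of 120. The groups overlapped, with 4 of 6 abstinent libraries above all F0_MOR libraries. The fold change was 1.68 (log2 0.75, SE 0.24, adjusted p = 0.0272 by edgeR), and with log2 total count as a covariate it fell short of the threshold on fold change (log2 0.56, adjusted p = 0.0893). miR-322-5p ranged from 2.77 to 9.75 normalized counts in F0_MOR with a median of 7.81, and from 9.27 to 24.0 in F0_ABS-MOR with a median of 16.8. Only library D of F0_ABS-MOR lay within the F0_MOR range, below its highest library M. The fold change was 2.42 (log2 1.27, SE 0.46, adjusted p = 0.0585 by edgeR), and the call was lost without F0_MOR library A (adjusted p = 0.121) or F0_ABS-MOR library I (0.107), within a range of 0.0464 to 0.121 over the libraries left out. It was also lost with the total count covariate (log2 1.06, adjusted p = 0.129 by edgeR).

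miR-15b-3p ranged from 265 to 623 normalized counts in F0_MOR with a median of 425, and from 171 to 385 in F0_ABS-MOR with a median of 233. Of the abstinent libraries, 4 of 6 lay below all F0_MOR libraries. The level in F0_ABS-MOR was 0.551 times that in F0_MOR (log2 −0.86, SE 0.21, adjusted p = 0.0080 by edgeR). Its partner arm miR-15b-5p had a log2 fold change of −0.31 (SE 0.21, adjusted p = 0.296 by edgeR). miR-497-5p, which was called in the saline males, ranged from 7.49 to 47.1 normalized counts in F0_MOR and from 10.1 to 51.7 in F0_ABS-MOR. Both groups thus spanned almost the same range, with a log2 fold change of 0.43 (SE 0.44, adjusted p = 0.526 by edgeR). miR-195-3p had a log2 fold change of 1.13 (SE 0.55, adjusted p = 0.150 by edgeR) and was called as higher when F0_MOR library M (log2 fold change 1.49) or F0_ABS-MOR library I (1.37) or J (1.33) was left out. miR-322-3p stood at 0.17 (SE 0.46), miR-16-5p at −0.20 (SE 0.21), miR-16-3p at 0.13 (SE 0.38) and miR-503-5p at −0.11 (SE 0.35) on the log2 fold change scale.

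miR-503-3p was too scarce to be tested. It had 0 counts in 7 of 7 F0_MOR libraries and in 6 of 7 F0_SAL libraries, with 2 reads in library P. In F0_ABS-SAL it had 0 counts in R, 2 in E, 2 in K, 5 in L and 7 in Y, and in F0_ABS-MOR between 0 and 4. The files hold no count of 1, the smallest above 0 being 2, so that a library at 0 may have held an uncounted read. Median depth was also lower in the nonabstinent groups, where most of the zeros lay.

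Some markers of other cell types also differed in the timepoint comparisons. Of all 317 miRNAs, 22.4% were called higher in the saline and 11% in the morphine timepoint comparison, to be set beside the counts that follow. The endothelial pair, miR-126a-3p and miR-126a-5p, was higher in F0_ABS-SAL than in F0_SAL (2 of 2, log2 fold changes 1.25 and 1.54) and in F0_ABS-MOR than in F0_MOR (2 of 2, 0.88 and 1.02). Its summed level ran from 546 to 783 CPM in F0_SAL and 583 to 732 in F0_MOR, against 708 to 2821 in F0_ABS-SAL and 1036 to 1457 in F0_ABS-MOR. Within F0_ABS-SAL it was 708 CPM in library E, 1375 in K, 1390 in Y, 1788 in R and 2821 in L. For miR-195-5p, miR-497-5p and miR-322-5p, E was also the lowest and L the highest. miR-195-3p was instead highest in R, and miR-322-3p was lowest in Y. Within F0_ABS-MOR the endothelial sum was lowest in library X and highest in I. There miR-195-5p, miR-497-5p and miR-322-5p were also highest in I, but lowest in S, Q and D in that order. The muscle list had 3 of its 4 tested miRNAs higher in the saline and 1 of 4 in the morphine timepoint comparison. Its summed level reached 16717 CPM in F0_SAL and 17614 in F0_MOR, and ran from 17546 to 81478 in F0_ABS-SAL and from 15620 to 36208 in F0_ABS-MOR. The F0_ABS-SAL maximum was library R alone, with the next highest, L, at 28774. The list is carried by miR-143-3p, with 1044084 reads. Of the striated muscle miRNAs, miR-133b-3p and miR-206-3p were at 0 in 21 and 11 of the 25 libraries and were not tested. miR-1-3p (422 reads) and miR-133a-3p (350 reads) were each at 0 in 1 library. The 4 tested were miR-1-3p, miR-133a-3p, miR-143-3p and miR-145-5p. The 3 higher calls in the saline comparison thus included miR-1-3p or miR-133a-3p. Epithelial miRNAs of the miR-200 family and miR-141 were higher for 3 of 5 in the saline and 1 of 5 in the morphine comparison, with summed levels from 6354 to 10514 CPM in F0_SAL and 7261 to 10997 in F0_MOR, against 8361 to 18370 in F0_ABS-SAL and 8523 to 16854 in F0_ABS-MOR. Library R again held the F0_ABS-SAL maximum, with the next highest, E, at 11653.

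Sperm and germ cell miRNAs went the other way. Of their 5 tested members, all with reads in every library, 4 were lower in F0_ABS-SAL than in F0_SAL and 1 was lower in F0_ABS-MOR than in F0_MOR. Of all miRNAs, 10.7% and 10.1% were called lower in these comparisons. The summed level of the sperm markers ran from 396571 to 742611 CPM in F0_SAL and 322572 to 509878 in F0_MOR, against 270640 to 394259 in F0_ABS-SAL and 175423 to 433211 in F0_ABS-MOR. These CPM are scaled by TMM factors, which were 0.70 to 0.97 in F0_SAL and 1.02 to 1.21 in F0_ABS-SAL. That scaling makes the gap between these groups wider than in plain shares of reads. Of the sperm markers, miR-34c-5p was the most abundant, with 18815204 reads. It held 35.0% to 53.6% of the miRNA reads of F0_SAL libraries and 26.1% to 41.1% of those of F0_ABS-SAL libraries. In the morphine males it held 30.9% to 43.4% in F0_MOR and 19.6% to 43.5% in F0_ABS-MOR. These shares, which do not depend on TMM, overlapped between timepoints in both treatments. The saline calls depended on scaling. With libraries scaled by total count alone, 1 of all 317 miRNAs was called lower in the saline comparison. At most 1 of the 4 calls could thus remain. miR-449c-5p of the same list was at 0 in 24 libraries. Leukocyte miRNAs were higher for 1 of 6 in the saline comparison, and in the morphine comparison 1 was higher and 1 lower, with summed levels from 1153 to 2249 CPM in F0_SAL and 1601 to 2501 in F0_MOR, against 1939 to 2698 in F0_ABS-SAL and 2001 to 3055 in F0_ABS-MOR. Of all miRNAs, 22.4% were called higher in the saline comparison, and 11% higher and 10.1% lower in the morphine one. Erythroid miRNAs, 3 in number, were all lower in F0_ABS-MOR than in F0_MOR and not called in the saline comparison, with summed levels from 929 to 2741 CPM in F0_SAL and 948 to 2372 in F0_MOR, against 654 to 1256 in F0_ABS-SAL and 308 to 1291 in F0_ABS-MOR. No marker miRNA was called in either treatment comparison. The paper did report miR-150-5p of the leukocyte list as differentially expressed in F0_MOR against F0_SAL. It describes its qPCR as appearing to replicate that difference. Here neither edgeR nor a DESeq2 refit called any miRNA in that comparison. For miR-150-5p, 6 of 7 F0_SAL libraries lay below every F0_MOR library. The part of these cell types in the results for the family was not tested, and in whole sperm preparations fewer cells of a type and less RNA per cell cannot be told apart.

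**Figure D3:**
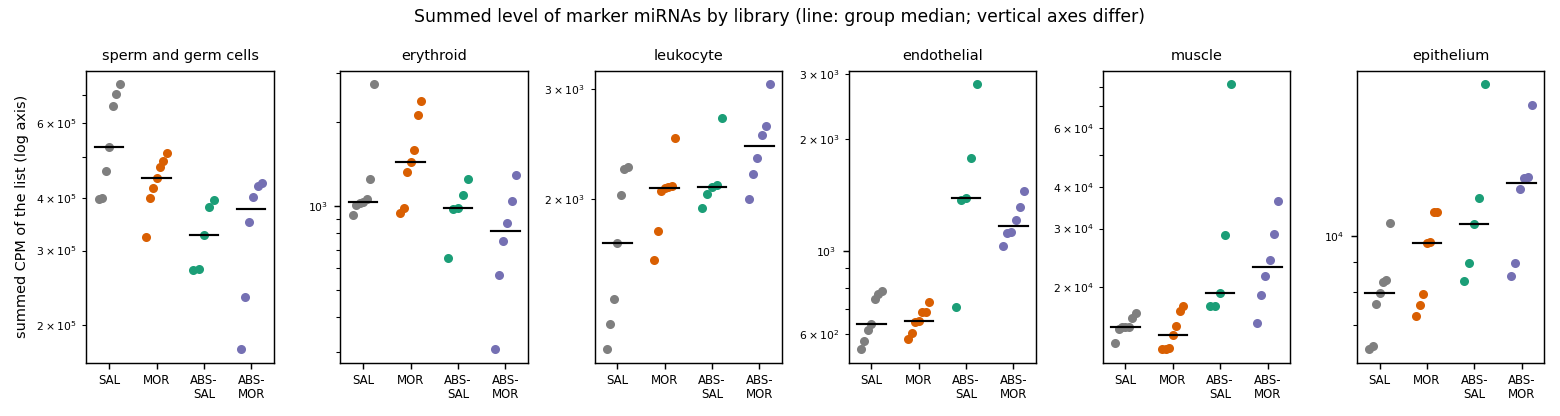
Summed level of the marker miRNAs of 6 cell types (panels) in each library, in CPM on log axes that differ between panels, by group (horizontal axis); points are libraries and lines are group medians. Endothelial levels in 4 of 5 F0_ABS-SAL and 6 of 6 F0_ABS-MOR libraries lie above every nonabstinent library, and the lowest F0_ABS-SAL library, E at 708 CPM, lies within the F0_SAL range.

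The treatment comparisons asked whether morphine changed the family. In F0_MOR against F0_SAL, edgeR called 0 of the 10 members and 0 of the 317 miRNAs (0%). At an unadjusted p under 0.05 there were 0 members and 23 miRNAs (7.26%), and DESeq2 called 0 members, with 0 members and 30 miRNAs at that unadjusted p. The members' median log2 fold change was 0.22, beside 0.06 over all miRNAs. miR-322-5p came nearest to the threshold, with a log2 fold change of 1.09 (SE 0.54, adjusted p = 0.623 by edgeR), and 5 of 7 F0_MOR libraries lay above every F0_SAL library at raw counts of 2 to 10 against 0 to 5. miR-322-3p followed at 0.80 (SE 0.47) and miR-497-5p at 0.62 (SE 0.44). For the abundant miR-16-5p the log2 fold change was 0.09, with 95% bounds of −0.32 and 0.49. For miR-195-5p it was 0.20, with bounds of −0.25 and 0.66. The estimate between timepoints in the saline males (1.07) lay above these bounds, but its own 95% bounds overlapped them. The scarce miR-322-5p and miR-497-5p, with SEs of 0.54 and 0.44, had wider bounds than miR-195-5p.

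After abstinence, in F0_ABS-MOR against F0_ABS-SAL, edgeR again called 0 members and 0 of 317 miRNAs (0%), with 0 members and 4 miRNAs (1.26%) at an unadjusted p under 0.05. DESeq2 called 0 members, with 0 members and 5 miRNAs at that unadjusted p. The members' median log2 fold change was −0.05, beside −0.01 over all miRNAs. miR-497-5p had the smallest p among them, with a log2 fold change of −0.44 (SE 0.45, adjusted p = 1.00 by edgeR). In miR-16-5p the log2 fold change was 0.02, with 95% bounds of −0.43 and 0.48, and in miR-195-5p −0.12, with bounds of −0.61 and 0.37. Whether the morphine effect differed between timepoints was tested as the interaction, F0_MOR against F0_SAL minus F0_ABS-MOR against F0_ABS-SAL. edgeR called 0 members and 0 miRNAs (0%), with 0 members and 10 miRNAs (3.15%) at an unadjusted p under 0.05, and DESeq2 called 0 members with 0 members and 11 miRNAs at that unadjusted p. The log2 differences furthest from 0 were those of miR-497-5p, 1.06 (SE 0.63), and miR-322-3p, 1.02 (SE 0.67), each with an adjusted p of 0.953 by edgeR. The same test bears on the difference between the saline and morphine timepoint comparisons, since both contrasts hold the 4 groups with the same weights, so that the calls of miR-497-5p, miR-195-3p and miR-322-3p in the saline males alone do not show a difference from the morphine males.

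Ratios of 2 members within a library do not depend on how libraries are scaled, and 7 such ratios were compared in the 4 pairwise comparisons by two-sided exact permutation tests, 28 in all, with Benjamini–Hochberg adjustment over them. miR-16-5p had a geometric mean of 13.0 reads for each read of its cluster neighbour miR-15b-5p in F0_SAL and 12.8 in F0_MOR, against 13.0 in F0_ABS-SAL and 13.0 in F0_ABS-MOR. Single libraries ranged from 7.45 to 27.9. The group means were nearly the same although the libraries of a group spread widely, and the smallest exact p was 0.945. Against miR-195-5p, from the other autosomal cluster, miR-16-5p had 121 reads per read in F0_SAL and 114 in F0_MOR, against 55.6 in F0_ABS-SAL and 58.7 in F0_ABS-MOR. The log2 ratio was lower by 1.12 in F0_ABS-SAL than in F0_SAL (difference −1.12, exact p = 0.00253, adjusted p = 0.0236) and lower in F0_ABS-MOR than in F0_MOR (−0.96, exact p = 0.00175, adjusted p = 0.0236). The smallest p that 5 against 7 libraries allow is 0.00126. The saline result was no longer called when F0_SAL library C, F, H, O, V or W was left out (adjusted p = 0.0606, exact test). The same held without F0_ABS-SAL library K, L, R or Y (adjusted p = 0.0566, exact test). The log2 difference stayed between −0.97 and −1.31 whichever library was left out. Fewer libraries allow fewer splits and thus a larger smallest p. The lost calls therefore cannot tell whether the saline result rested on those libraries.

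miR-16-5p had 2504 reads per read of miR-322-5p in F0_SAL and 1231 in F0_MOR, against 745 in F0_ABS-SAL and 440 in F0_ABS-MOR. The log2 ratio was lower in F0_ABS-MOR than in F0_MOR (−1.48, exact p = 0.00233, adjusted p = 0.0236). The saline difference of −1.75 did not pass the adjustment (adjusted p = 0.147, exact test) unless library E was left out (−2.22, adjusted p = 0.0339). It was −1.27 with 2 added to each count and −2.14 by medians, and passed in neither setting. Raw counts of miR-322-5p were only 0 to 5 in F0_SAL, so that its ratios depend on what is added to each count. Within the X-linked cluster the log2 ratio of miR-322-5p to miR-503-5p was 2.11 higher in F0_ABS-SAL than in F0_SAL, 1.35 higher in F0_ABS-MOR than in F0_MOR and 1.43 higher in F0_MOR than in F0_SAL, each with an adjusted p of 0.147 by the exact test. Without library E the saline timepoint difference was 2.87 (adjusted p = 0.0212, exact test). With all libraries and 2 added to each count it was 1.64. The log2 ratio of miR-195-5p to miR-497-5p differed by −0.71 in the saline and 0.22 in the morphine timepoint comparison (adjusted p = 0.292 and 0.905, exact test). The arm ratios of miR-15b were 0.42 and 0.57 higher on the log2 scale at the abstinent timepoint in saline and morphine males (exact p = 0.114 and 0.103), and those of miR-322 were 0.02 and 0.80 higher (exact p = 0.979 and 0.189).

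**Figure D4:**
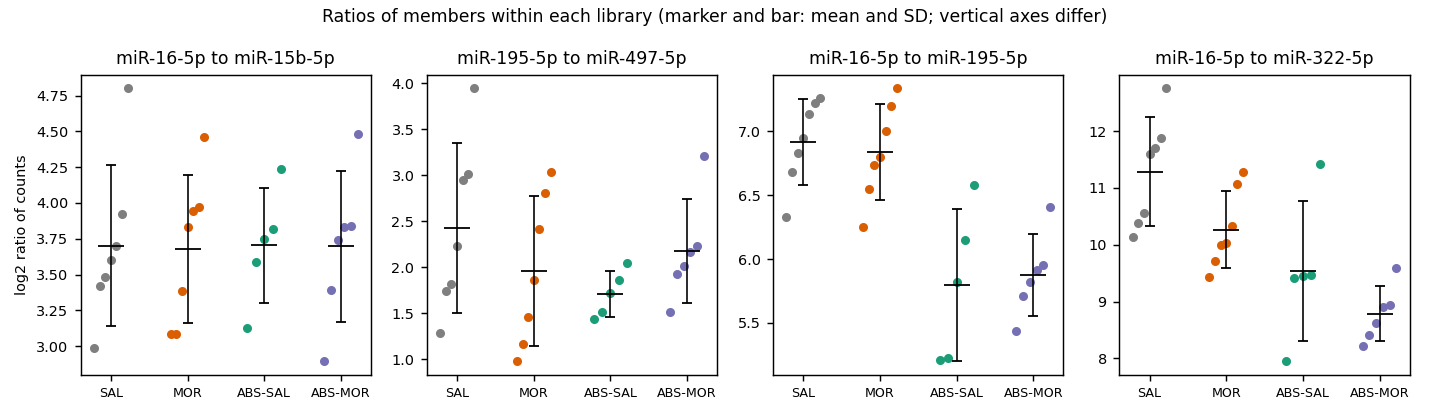
Log2 ratio of read counts of a pair of members within each library (vertical axis, scaled for each panel, 0.5 added to each count) by group (horizontal axis); points are libraries, lines group means and bars 1 SD. The ratio of miR-16-5p to miR-15b-5p has group means between 3.68 and 3.70, while that of miR-16-5p to miR-195-5p is lower at the abstinent timepoint, at 5.80 and 5.87 against 6.91 and 6.84.

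Members were also compared across the 25 libraries after each group's mean had been removed, over 45 pairs with 100000 permutations within groups. miR-195-5p and miR-497-5p, which share a transcript, varied together (Pearson's r = 0.63, permutation p = 0.00043, adjusted p = 0.0193; Spearman's rho = 0.68, permutation p = 0.00044, adjusted p = 0.0198). Without libraries E and S, the furthest from the median of miR-195-5p, r was 0.65. miR-15b-3p ran against miR-195-5p (r = −0.61, permutation p = 0.00206, adjusted p = 0.0463; rho = −0.62, permutation p = 0.00286, adjusted p = 0.0643), with r = −0.56 without libraries M and S. Of the 45 pairs, no other passed an adjusted p of 0.05 by permutation. The r largest in size was that of miR-16-5p with miR-195-3p, from different clusters (−0.64, permutation p = 0.00557, adjusted p = 0.0835). Also across clusters, miR-16-5p had an r of 0.51 with miR-195-5p and 0.53 with miR-497-5p (adjusted p = 0.103 by permutation for each). The cluster neighbours miR-16-5p and miR-15b-5p had an r of 0.12 (rho 0.14), miR-322-5p and miR-503-5p −0.30 (rho −0.28). Arms of 1 hairpin gave 0.50 (rho 0.49) for miR-16, 0.08 (rho 0.10) for miR-15b, 0.04 (rho 0.03) for miR-322 and −0.18 (rho −0.12) for miR-195, where the scarcer arms rested on few reads. Their permutation p-values were 0.0246 for miR-16, 0.723 for miR-15b, 0.863 for miR-322 and 0.452 for miR-195, with adjusted values of 0.103, 0.905, 0.965 and 0.727. All pairs share libraries, depth and scaling.

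**Figure D5:**
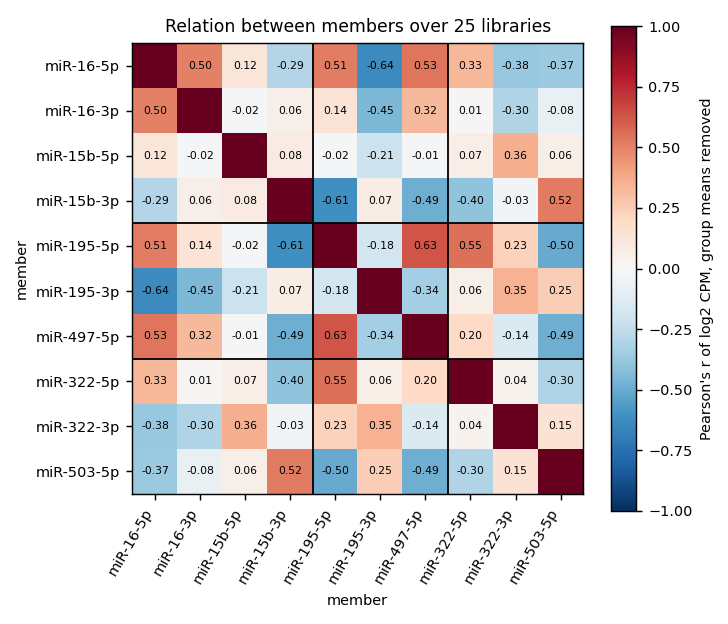
Pearson's r between the log2 CPM of each pair of tested members (both axes) over 25 libraries with group means removed, as colour and number; black lines divide the clusters of miR-15b with miR-16, miR-195 with miR-497 and miR-322 with miR-503. miR-195-5p with miR-497-5p (0.63) and miR-15b-3p with miR-195-5p (−0.61) are the pairs that passed the adjustment.

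As a description without a test, the 5 miRNAs whose levels ran most like those of miR-16-5p over the 25 libraries, among 316 compared, were miR-350 (r = 0.88), miR-883-3p (0.86), miR-106b-5p (0.83), miR-18a-5p (0.81) and the sperm miRNA miR-34c-5p (0.81). Those most like miR-195-5p were miR-542-3p (0.74), miR-326-3p (0.73), the endothelial miR-126a-5p (0.73), miR-34a-5p (0.72) and miR-101a-3p (0.72). miR-542-3p belongs to the X-linked group of hairpins near miR-322 and miR-503. Of the 8 other mature miRNAs of that group, 4 were tested, and miR-450a-5p (log2 fold change 0.92) and miR-450b-5p (1.00) were called as higher in F0_ABS-SAL than in F0_SAL by edgeR (adjusted p = 0.013 and 0.012). miR-542-3p (0.64) and miR-351-5p (0.40) were not called there, and in the other comparisons 0 of 4 were called. Of all 317 miRNAs, 33.1% were called in the saline timepoint comparison, 22.4% as higher. In the morphine timepoint comparison 21.1% were called, and in the treatment comparisons and the interaction 0%. miR-103-3p and miR-107-3p, which share the 6 letters near the 5′ end, were called in none of the comparisons, with log2 fold changes of −0.36 and −0.20 in the saline and −0.46 and −0.38 in the morphine timepoint comparison.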

How the data were processed

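The values were raw read counts per mature miRNA, which the authors deposited as 1 matrix for 25 libraries. Per the study's methods, libraries were made with the NEBNext small RNA kit, and forward reads were trimmed, filtered on mean quality and assigned with sRNAbench, using the rat genome rn6 and miRBase. The submitters' processing notes also name DESeq2. An ncRNA matrix with 25 columns of values was not used here. Columns carry treatment, REG or TO and a letter, and REG or TO was matched to a timepoint by group size.

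Counts were fitted over all miRNAs with edgeR 4.0.16 (R 4.3.3) in 1 model of the 4 groups, with filterByExpr, TMM factors and quasi-likelihood tests. Every adjusted p of a fold change comes from this fit unless DESeq2 1.42.0 is named. A call needed a Benjamini–Hochberg value under 0.1 and a log2 fold change over 0.58 in size. Ratios had 0.5 added to each count and were tested by exact permutation (numpy 2.4.6), called under 0.05. Level plots used a prior count of 2. The fits were checked on simulated counts. Members named were all those of the family, and the 5 most alike miRNAs of miR-16-5p and miR-195-5p were taken by Pearson's r. The members, marker lists and tests were chosen with earlier results of these data known. Alternatives covered the scaling, filter, samples, thresholds, total count as covariate, DESeq2 and each library left out. Depth per library is given with the results, and p-values measure the spread between libraries only.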

Additional observations from a re-analysis of the deposited data

Results flagged for a closer look

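In groups of 4 to 10 libraries, the highest and lowest were compared with the rest by Dixon's test at the 95% level, over 72 groups of values. Chance would give about 1 in 20, or 3.6, and 2 were found. miR-16-5p in F0_MOR library N stood at 12.68 log2 CPM, with the next highest library, A, at 12.26. miR-503-5p in F0_SAL library P stood at 5.45 log2 CPM, with the next highest, C, at 4.38. Neither member was called in any comparison that used all libraries. Without library N the log2 fold change of miR-16-5p in F0_MOR against F0_SAL was −0.06 instead of 0.09.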

How the results depend on the processing

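No paired analysis was possible because the matrix columns carry letters and not the replicate numbers of the labels. The groups were also of different males, and the sources do not say that equal replicate numbers match males across groups. Of the 310 log2 fold changes refitted under other settings, 291 kept their direction and side of the threshold, as did 679 of 750 with 1 library left out, 46 of 56 ratio results under other settings and 295 of 350 with 1 library left out. The members called in F0_ABS-SAL against F0_SAL numbered 3 at an adjusted p under 0.05 and 1 with at least 10 counts in every library, which leaves few members to test, and 3 to 7 with 1 library left out. In F0_ABS-MOR against F0_MOR they numbered 2 to 3 under other settings and 2 to 4 with 1 library left out, and in the treatment comparisons and the interaction 0 throughout. Few reads limit miR-322-5p, miR-195-3p and miR-503-3p most. For the values that follow, the cause was not tested.

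Signs turned only where the log2 fold change was not called. Total count scaling gave 0.27 for miR-16-5p, 0.24 for miR-15b-5p and 0.33 for miR-16-3p in F0_ABS-SAL against F0_SAL, 0.056 for miR-503-5p in F0_ABS-MOR against F0_MOR and 0.0090 for miR-16-3p in the interaction. The total count covariate gave −0.033 for miR-195-3p in F0_MOR against F0_SAL, −0.024 for miR-503-5p and −0.23 for miR-195-3p in F0_ABS-MOR against F0_ABS-SAL, and 0.018 for miR-503-5p, −0.12 for miR-16-3p and −0.039 for miR-497-5p in F0_ABS-MOR against F0_MOR. With that covariate the calls of miR-322-5p (1.06, adjusted p = 0.129 by edgeR) and miR-195-5p (0.56, adjusted p = 0.0893) in F0_ABS-MOR against F0_MOR were lost and miR-195-3p was called there (1.48, adjusted p = 0.0540), and without the filter the call of miR-195-3p in F0_ABS-SAL against F0_SAL was lost (1.33, adjusted p = 0.107). Without the filter miR-16-5p gave −0.0062 in F0_MOR against F0_SAL and −0.021 in the interaction, which DESeq2 size factors moved to −0.0015, and with only the 2 groups it gave −0.00035 in F0_ABS-MOR against F0_ABS-SAL. Among log2 ratios, 2 added to each count gave −0.13 for miR-322-5p to miR-322-3p in F0_MOR against F0_SAL and −0.21 in F0_ABS-SAL against F0_SAL. Medians gave 0.23, 0.038 and −0.046 for miR-16-5p to miR-15b-5p in F0_MOR against F0_SAL, F0_ABS-MOR against F0_ABS-SAL and F0_ABS-MOR against F0_MOR, −0.23 for miR-322-5p to miR-503-5p in F0_ABS-MOR against F0_ABS-SAL and −0.65 for the miR-322 arms in F0_MOR against F0_SAL. By medians the calls for miR-16-5p to miR-195-5p (−1.13 in the saline, −0.93 in the morphine timepoint comparison) and to miR-322-5p (−1.27 in the morphine one) were lost.

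With 1 library left out, log2 fold changes in F0_ABS-MOR against F0_ABS-SAL ran from −0.15 to 0.20 for miR-16-5p, −0.14 to 0.12 for miR-15b-5p, −0.25 to 0.053 for miR-15b-3p, −0.28 to 0.046 for miR-195-5p, −0.20 to 0.31 for miR-195-3p, −0.33 to 0.096 for miR-322-3p and −0.19 to 0.37 for miR-503-5p. In F0_MOR against F0_SAL they ran from −0.061 to 0.098 for miR-16-5p and −0.12 to 0.50 for miR-195-3p, in F0_ABS-SAL against F0_SAL from −0.27 to 0.075 for miR-16-3p, and in F0_ABS-MOR against F0_MOR from −0.32 to 0.043 for miR-503-5p, −0.17 to 0.32 for miR-16-3p and −0.013 to 0.44 for miR-322-3p. In the interaction they ran from −0.12 to 0.16 for miR-16-5p, −0.025 to 0.24 for miR-15b-5p, −0.44 to 0.032 for miR-16-3p and −0.19 to 0.45 for miR-195-3p. Log2 ratios of miR-16-5p to miR-15b-5p differed by −0.15 to 0.16 in F0_MOR against F0_SAL, −0.16 to 0.15 in F0_ABS-MOR against F0_ABS-SAL, −0.13 to 0.19 in F0_ABS-SAL against F0_SAL and −0.14 to 0.18 in F0_ABS-MOR against F0_MOR. Those of miR-16-5p to miR-195-5p ran from −0.17 to 0.022, −0.069 to 0.27 and −1.31 to −0.97 in the first 3 of these comparisons. Those of the miR-15b arms ran from −0.26 to 0.061 and −0.028 to 0.22 in the treatment comparisons without and with abstinence. Those of the miR-322 arms ran from −0.35 to 0.55 in F0_MOR against F0_SAL and −0.42 to 0.53 in F0_ABS-SAL against F0_SAL. Those of miR-322-5p to miR-503-5p ran from −0.087 to 1.09 in F0_ABS-MOR against F0_ABS-SAL and 1.69 to 2.87 in F0_ABS-SAL against F0_SAL, where miR-16-5p to miR-322-5p ran from −2.22 to −1.35.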
